A study of Homo sapiens with 24 samples.

Results

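The 9 genes described here, IFIT1, IFIT2, IFIT3, ISG15, IRF1, IRF9, IFI6, OAS3 and MX1, are interferon response genes, taken by name out of the 58676 genes counted in HepG2, a human hepatocellular carcinoma line. Cells were transfected with 1 of 4 siRNAs: siControl, a commercial negative control siRNA, or siIGF2BP1, siIGF2BP2 or siIGF2BP3, directed at the 3 IGF2 mRNA-binding proteins. After transfection and re-seeding, actinomycin D was added to stop transcription, and polyadenylated RNA was sequenced after 0, 3 and 6 h, with 2 libraries for each of the 12 combinations, 24 in all. All 4 groups were transfected, and untransfected cells were not analysed here, so a response common to the 4 siRNAs cannot be told apart from the resting level of the line. The paper calls the replicates independent, but neither it nor the labels say whether they came from separate transfections, so p-values measure the spread between these libraries. Transfected plates were divided among the time points, so libraries of the same siRNA at different times may share a transfection. One question is whether any siRNA set off an innate response relative to the others, as seen at the time of sampling. The other is how long each mRNA lasted. By the paper's methods the cells were sampled days after transfection, so a response that had passed by then would not be seen.

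Double-stranded RNA in the cytoplasm is sensed by the RIG-I-like receptors, which signal through MAVS to the kinase TBK1 and the factor IRF3 and so switch on interferon genes. Secreted interferons bind their receptors and activate JAK kinases, and the signal reaches the nucleus through factors that include IRF9. Promoters of interferon-responsive genes carry the interferon-stimulated response element (ISRE) or the gamma-activated sequence (GAS). Synthetic short RNAs can engage the same sensors, which is why such genes are a usual control in knockdown experiments.

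The promoters of the members are shown first and were searched for the letters of the ISRE and the GAS. RefSeq promoters (GRCh38.p14, from 250 bases before to 50 bases after each start site) were found for 8 of the 9 genes, 11 promoters in all, with IFIT2 not among them. The ISRE core, GAAANNGAAA on either strand, was present in 8 of the 11 (72.7%), against 3.57% of all 35116 promoters in the table and 38.2% of 123 promoters of other interferon pathway genes. The GAS core, TTCNNNGAA, which reads the same on both strands, was present in 3 of the 11 (27.3%), against 7.66% of all promoters. It was in 23.6% of the 123 promoters of other pathway genes, a share near that of the members. The windows below hold in capitals the matches nearest the start site, each 5′ to 3′ on the strand of its gene. Further ISRE cores in the promoters of IFIT3, IFI6 and OAS3 lie outside the windows. Another promoter with matches is not shown for IFIT3 and for MX1.
IFIT1, chr10:89392498-89392537, plus strand, ISRE cores: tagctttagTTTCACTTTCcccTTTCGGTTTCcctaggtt
IFIT3, chr10:89327860-89327899, plus strand, ISRE core: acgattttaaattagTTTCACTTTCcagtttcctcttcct
ISG15, chr1:1013372-1013411, plus strand, ISRE cores: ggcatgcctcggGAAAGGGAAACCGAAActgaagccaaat
IFI6, chr1:27672272-27672311, minus strand, ISRE cores: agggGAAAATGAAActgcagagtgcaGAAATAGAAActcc
OAS3, chr12:112938447-112938486, plus strand, ISRE core: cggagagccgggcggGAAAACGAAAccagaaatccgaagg
MX1, chr21:41420554-41420593, plus strand, ISRE core: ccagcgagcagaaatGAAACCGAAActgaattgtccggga
IRF1, chr5:132490874-132490913, minus strand, GAS core: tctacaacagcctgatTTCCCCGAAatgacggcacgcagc
IRF9, chr14:24161186-24161225, plus strand, GAS core: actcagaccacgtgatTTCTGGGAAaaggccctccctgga
All effector promoters found except 1 of the 3 of MX1 held the ISRE letters, whereas those of the transcription factor genes IRF1 and IRF9 held the GAS letters and no ISRE core. Another MX1 promoter held both. A match describes the letters and is not evidence of binding.

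Libraries held 31843248 to 74252042 reads assigned to genes. Levels are given as CPM, the read count divided by the reads of its library and put on the usual per-million scale, and at this depth 3 reads corresponded to 0.0404 to 0.0942 CPM. Each siRNA lowered its own target at 0 h: IGF2BP1 to 21.1%, IGF2BP2 to 26.2% and IGF2BP3 to 35.5% of siControl. All 10 hepatocyte markers examined were above 1 CPM, among them ALB at 10740 CPM or more in each 0 h library. Of 8 immune cell markers, PTPRC, the pan-leukocyte antigen, was at most 0.0181 CPM, but LYZ stood at 772 to 1221 CPM and made up most of a summed immune marker level of 1197 to 1223 CPM with siControl, 899.7 to 933.7 CPM with siIGF2BP1, 774.5 to 812.7 CPM with siIGF2BP2 and 1062 to 1084 CPM with siIGF2BP3. Of 6 endothelial and stromal markers, only PDGFRB averaged above 1 CPM.

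Before actinomycin D was added, the members were at low to moderate levels under every siRNA, and IFIT2 was barely detected. To compare genes with each other, CPM was divided by the length of the canonical transcript (RPKM). ISG15, a ubiquitin-like modifier, was highest at 15.8 ± 0.718 RPKM (mean ± SD, n = 8 libraries at 0 h), followed by OAS3, a synthetase of the RNA-degrading 2-5A system, at 5.74 ± 0.343 RPKM. IFI6, a small mitochondrial and endoplasmic reticulum protein, MX1, a GTPase that blocks viral ribonucleoproteins, and IRF1, a transcription factor, came next at 2.63 ± 0.473, 2.25 ± 0.276 and 2.08 ± 0.315 RPKM. Their ranges over the 8 libraries overlapped, so no order is given among them. IRF9 and IFIT3 had 0.917 ± 0.128 and 0.909 ± 0.146 RPKM, also with overlapping ranges. IFIT1, which binds viral RNA lacking a host cap, had 0.297 ± 0.0763 RPKM, and IFIT2 had 0.0285 ± 0.0418 RPKM. In the GENCODE v44 annotation 93.0% of the canonical IRF9 transcript lies in exons of a read-through locus on the same strand, which drew 29 to 110 reads per library, and 26.6% of IFI6 overlaps LINC02574. How reads in shared exons were assigned is not given in the sources used here, so the levels of IRF9 and IFI6 are uncertain relative to the others.

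**Figure D1:**
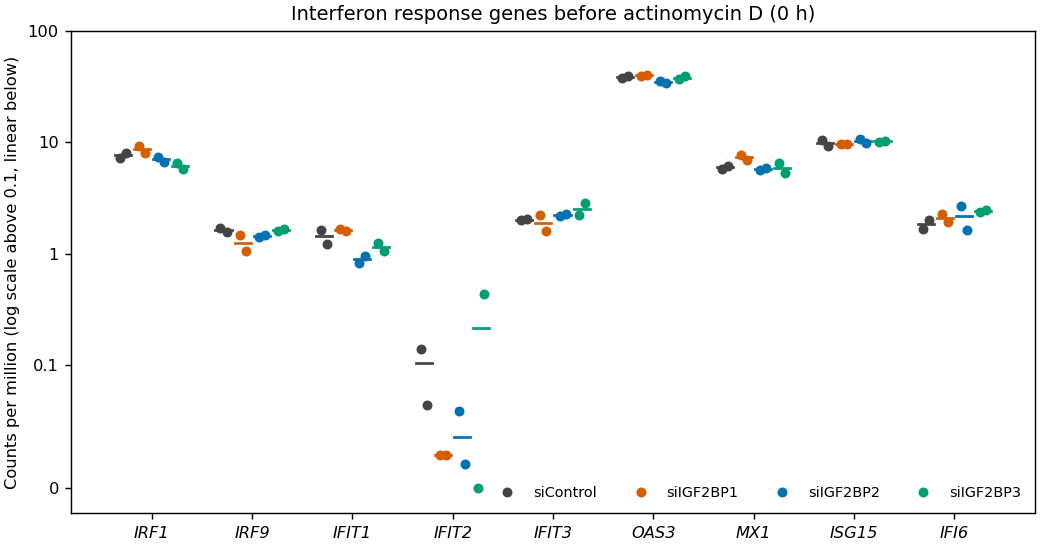
Levels (CPM) of the 9 interferon response genes at 0 h (vertical axis, log scale above 0.1 and linear below), 2 libraries for each of 4 siRNAs as points and the group mean as a bar. Relative to their means, ISG15 (9.36 to 10.7 CPM) and OAS3 (33.9 to 40.2 CPM) vary least over the 8 libraries. IFIT1 spans 0.817 to 1.66 CPM, and IFIT2 varies most, from 0 to 0.431 CPM.

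The transcription factor genes came first in the comparison of the 4 siRNAs, since they act upstream of the effectors. IRF1, which is itself rapidly induced by interferon-gamma, was at 7.18 and 8.11 CPM in the siControl libraries, 9.36 and 8.09 in siIGF2BP1, 7.43 and 6.62 in siIGF2BP2 and 6.58 and 5.78 in siIGF2BP3. The siIGF2BP3 libraries were the lowest, and siIGF2BP1 overlapped siControl. Against siControl the log2 fold change of IRF1 was 0.21 (95% interval -0.16 to 0.58) for siIGF2BP1, -0.12 (-0.49 to 0.26) for siIGF2BP2 and -0.30 (-0.68 to 0.08) for siIGF2BP3, and none passed the test at an adjusted p of 0.05 (edgeR quasi-likelihood test, Benjamini-Hochberg over all genes). IRF9, a DNA-binding factor of the type I interferon response, ranged from 1.05 to 1.71 CPM, with the lowest library in siIGF2BP1 and the highest in siControl. Its log2 fold changes were -0.34 (-0.99 to 0.30), -0.18 (-0.82 to 0.45) and -0.01 (-0.65 to 0.64) for siIGF2BP1, siIGF2BP2 and siIGF2BP3.

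The IFIT genes, whose products recognise foreign RNA and dampen its translation, were the least abundant effectors. IFIT1 was at 1.64 and 1.23 CPM with siControl, 1.66 and 1.61 with siIGF2BP1, 0.817 and 0.960 with siIGF2BP2 and 1.247 and 1.06 with siIGF2BP3. Both siIGF2BP2 libraries lay below all others, and the siControl and siIGF2BP3 libraries overlapped. The log2 fold change against siControl was 0.22 (-0.51 to 0.95) for siIGF2BP1, -0.68 (-1.45 to 0.09; adjusted p = 0.291) for siIGF2BP2 and -0.29 (-1.05 to 0.47) for siIGF2BP3 in the edgeR fit. IFIT3, which partners IFIT1, lay between 1.59 and 2.84 CPM, the extremes being a siIGF2BP1 and a siIGF2BP3 library. Its log2 fold changes were -0.05 (-0.73 to 0.62), 0.15 (-0.52 to 0.82) and 0.33 (-0.34 to 1.00) in the same order. IFIT2, a further member of the family, had 8 and 5 reads in the siControl libraries at 0 h, 2 and 1 in siIGF2BP1, 4 and 1 in siIGF2BP2 and 0 and 17 in siIGF2BP3. It did not reach 1 CPM in any library, so it failed the filter and was not tested. The highest and the lowest IFIT2 count at 0 h were replicates of the same siRNA, and the 17 reads were 0.431 CPM.

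The antiviral enzymes OAS3 and MX1 were measured with more reads. OAS3, which makes the 2-5A messenger that activates RNase L, was at 37.8 and 39.6 CPM with siControl, 39.8 and 40.2 with siIGF2BP1, 35.5 and 33.9 with siIGF2BP2 and 37.2 and 39.2 with siIGF2BP3. The siIGF2BP2 libraries were below the other 6 and the siIGF2BP1 libraries above them. Against siControl the log2 fold change of OAS3 was 0.07 (-0.05 to 0.19) for siIGF2BP1, -0.15 (-0.27 to -0.03; adjusted p = 0.104) for siIGF2BP2 and -0.02 (-0.14 to 0.10) for siIGF2BP3 in the edgeR fit. MX1 was at 5.81 and 6.15 CPM with siControl, 7.65 and 7.01 with siIGF2BP1, 5.70 and 5.92 with siIGF2BP2 and 6.47 and 5.30 with siIGF2BP3. Both siIGF2BP1 libraries exceeded the rest, with a log2 fold change of 0.32 (0.02 to 0.61; adjusted p = 0.153 by edgeR) against siControl. For siIGF2BP2 and siIGF2BP3 the MX1 values were -0.04 (-0.34 to 0.26) and -0.01 (-0.32 to 0.29).

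ISG15 and IFI6 showed no called difference either. ISG15 was the steadiest member, from 9.36 to 10.7 CPM, with a coefficient of variation of 4.55% over the 8 libraries at 0 h. Its log2 fold changes against siControl were -0.01 (-0.22 to 0.20), 0.06 (-0.14 to 0.27) and 0.05 (-0.16 to 0.25) for siIGF2BP1, siIGF2BP2 and siIGF2BP3, so the upper bound of any ISG15 rise was 1.2-fold. IFI6, an inhibitor of apoptosis induced by type I interferon, was at 1.66 and 2.01 CPM with siControl, 2.26 and 1.93 with siIGF2BP1, 2.69 and 1.64 with siIGF2BP2 and 2.39 and 2.48 with siIGF2BP3. The siIGF2BP2 replicates spanned the whole range of the gene, and only siIGF2BP3 lay wholly above siControl, at a log2 fold change of 0.41 (-0.03 to 0.84; adjusted p = 0.293 by edgeR).

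**Figure D2:**
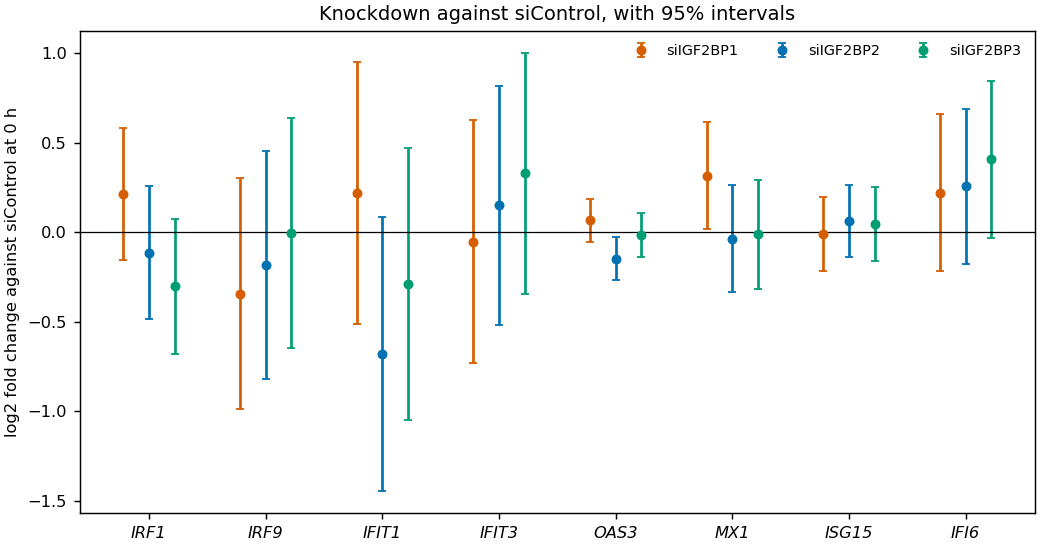
Log2 fold change at 0 h of the 8 tested members in each knockdown against siControl (points, with 95% intervals from the edgeR fit as bars). Most intervals include 0, and the exceptions are MX1 in siIGF2BP1 and OAS3 in siIGF2BP2, neither of which passed after adjustment over all genes.

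Taking the 8 tested members together, none was called in any comparison of a knockdown with siControl. This was 0 of 8 for siIGF2BP1, where 15.9% of all 13136 genes were called, 0 of 8 for siIGF2BP2 (12.1% of all genes) and 0 of 8 for siIGF2BP3 (9.39%). At an unadjusted p under 0.05 the counts were 1, 1 and 0 of 8, against 26.6%, 23.1% and 20.7% of all genes, and DESeq2 also called 0 in each, though it gave no adjusted p for 18 of the 48 member values over the 6 comparisons at 0 h. Fitted on only the 4 libraries compared, OAS3 was called in siIGF2BP2 (1 of 8), and the share of all genes called in that fit was not recorded. The median log2 fold change of the members was 0.14, -0.08 and -0.01, against 0.01, 0.02 and 0.00 over all genes, with 5, 3 and 3 of the 8 members above 0. The widest intervals allowed a rise of at most 2-fold (IFIT3 in siIGF2BP3) and 1.93-fold (IFIT1 in siIGF2BP1). The 3 comparisons share the siControl libraries and are not independent of each other.

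Set against each other, the knockdowns differed at 1 member in the fit of all libraries. When only the 4 libraries compared were fitted, 4 members were called between siIGF2BP1 and siIGF2BP2 (OAS3, IFIT1, IRF1 and MX1) and 1 between siIGF2BP1 and siIGF2BP3 (IRF1, adjusted p = 0.00409 by edgeR). The shares of all genes called in these smaller fits were not recorded, so these counts have no background to be read against. In the fit of all libraries OAS3 was higher in siIGF2BP1 than in siIGF2BP2 by 0.22 on the log2 scale (0.09 to 0.34; adjusted p = 0.00859 by edgeR), which was 1 of 8 members where 18.7% of all genes were called. IFIT1 and MX1 had differences of 0.90 (0.13 to 1.67) and 0.35 (0.05 to 0.65) in the same comparison, with adjusted p = 0.0998 and 0.0967. In that fit no member was called between siIGF2BP1 and siIGF2BP3 (14.3% of all genes called), where IRF1 had 0.51 (0.13 to 0.89; adjusted p = 0.0605 by edgeR), or between siIGF2BP2 and siIGF2BP3 (9.19% of all genes called). At an unadjusted p under 0.05 by edgeR, siIGF2BP1 against siIGF2BP2 had 3 of 8 members, against 28.9% of all genes. The comparisons of siIGF2BP1 and siIGF2BP2 with siIGF2BP3 had 2 and 1 of 8 members, against 25% and 20.3% of all genes, and DESeq2 called 0 in both. In the joint test of the 4 siRNAs OAS3 was again the 1 of 8 members called (adjusted p = 0.034 by edgeR), where 28.8% of all genes were. DESeq2 called IRF1 as well (adjusted p = 0.0162). The OAS3 call between siIGF2BP1 and siIGF2BP2 was lost without siIGF2BP1 replicate 2 (adjusted p = 0.065) or siIGF2BP2 replicate 2 (adjusted p = 0.102), and when libraries were scaled to the spike-in RNA described below (log2 0.11, adjusted p = 0.516). The joint call was lost without any 1 of the 4 siIGF2BP1 and siIGF2BP2 libraries, and with library size or spike-in scaling, where 0 members were called.

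The ligands of the pathway were not detected at this depth. Of 21 interferon genes of types I, II and III, 17 had no read in any of the 24 libraries, and the other 4 had 6 reads in all, with no library above 2. At 0 h the 3 reads found were in siIGF2BP3 libraries, and siControl, siIGF2BP1 and siIGF2BP2 had 0 each, which allows up to 3 reads per library. The apparatus that would detect and answer interferon was present: 5 of 6 receptor genes, 4 of 9 RNA and DNA sensors, 10 of 12 adaptors and kinases leading to IRF3 and all 5 JAK-STAT genes passed the filter. Their mean levels at 0 h included 4.81 CPM for IFNAR2 and 59.0 CPM for IFNGR1 among receptors, 2.005 CPM for DHX58 and 118 CPM for EIF2AK2 among sensors, and 9.47 CPM for JAK2 and 165.9 CPM for JAK1 among the JAK-STAT genes. Among 54 further interferon-stimulated effectors 19 failed the filter, and among 13 antigen presentation genes 1 did. These levels were not divided by transcript length and give no order between genes.

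Over the 129 other pathway genes, 78 were tested, and their calls at 0 h went in both directions. In siIGF2BP1, 12 were higher and 4 lower than in siControl (20.5%, against 15.9% of all genes). In siIGF2BP2, 2 were higher and 8 lower (12.8%, against 12.1%), and in siIGF2BP3, 1 was higher and 3 lower (5.13%, against 9.39%). Their median log2 fold changes were 0.05, -0.08 and -0.02. Of the 35 tested effectors, 11 rose and 2 fell in siIGF2BP1, 1 rose and 5 fell in siIGF2BP2, and 1 rose and 1 fell in siIGF2BP3. The called effectors were thus 37.1%, 17.1% and 5.71% of those tested, against 15.9%, 12.1% and 9.39% of all genes. The lists were chosen with earlier results of these data known, so these shares are a description and not a test of the pathway. Scaled to spike-in RNA, the numbers of called pathway genes were 7, 3 and 1. The share of all genes called on that scale was not recorded, so the lower numbers are not a result about the pathway.

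In siIGF2BP1 the largest called change was a fall, that of CMPK2, a mitochondrial nucleotide kinase, from 1.05 and 1.27 CPM in siControl to 0.433 and 0.538 CPM. Its log2 fold change was -1.27 (SE 0.359, adjusted p = 0.0113 by edgeR), and it is named after its value was seen because its mean over all 24 libraries was 0.742 CPM. The 6 called genes with a mean above 1 CPM and the largest changes were all effectors and all rose. TDRD7, a tudor domain protein, rose by 0.81 on the log2 scale (SE 0.108), from 14.7 and 13.3 CPM in siControl to 24.2 and 24.1 CPM. TRIM21, an intracellular antibody receptor, rose by 0.60 (SE 0.175), APOL6 by 0.44 (SE 0.0976) and UBE2L6, the conjugating enzyme for ISG15, by 0.35 (SE 0.12). DTX3L, a ubiquitin ligase, rose by 0.34 (SE 0.062) and APOL1 by 0.33 (SE 0.0659). In siIGF2BP2 TDRD7 also rose, by 0.63 (SE 0.108), and the kinase JAK1 rose by 0.29 (SE 0.0337). UBA7, the activating enzyme for ISG15, had a log2 fold change of -0.50 (SE 0.162), the ADP-ribosyltransferases PARP14 and PARP12 of -0.38 (SE 0.049) and -0.32 (SE 0.0854), and PLSCR1 of -0.32 (SE 0.102). PARP14 thus stood at 47.3 and 46.8 CPM in siIGF2BP2 against 60.4 and 62.9 CPM in siControl and 73.1 and 71.0 CPM in siIGF2BP1, with no overlap between the groups.

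In siIGF2BP3 the called genes were 4. GBP2, an interferon-inducible GTPase, had a log2 fold change of -0.70 (SE 0.176), HLA-E of -0.24 (SE 0.0778) and the adaptor MAVS of -0.13 (SE 0.0368), while TDRD7 rose by 0.51 (SE 0.11). MAVS was called lower in the other knockdowns too, at -0.24 (SE 0.0368) in siIGF2BP1 and -0.13 (SE 0.0366) in siIGF2BP2, against the same siControl libraries. When each of the 4 libraries compared was left out in turn, the calls of TDRD7 and DTX3L held in siIGF2BP1 and those of TDRD7, PARP14 and JAK1 in siIGF2BP2. The call of MAVS also held in siIGF2BP1. The other calls named here were lost at least once: those of CMPK2, TRIM21, APOL6, UBE2L6 and APOL1 in siIGF2BP1, UBA7, PARP12, PLSCR1 and MAVS in siIGF2BP2 and all 4 in siIGF2BP3. CMPK2, for example, had adjusted p = 0.104 without siControl replicate 2 and 0.173 without siIGF2BP1 replicate 1. TDRD7 entered the effector list with its response known, so its direction is a description. The summed immune marker level given above, nearly all LYZ, also differed between siRNAs. The summed level of the 6 endothelial and stromal markers was 11.75 to 12.04 CPM with siControl, 7.83 to 9.16 CPM for siIGF2BP1, 11.73 to 12.44 CPM for siIGF2BP2 and 8.57 to 10.03 CPM for siIGF2BP3. The part of either sum in these values was not tested.

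**Figure D3:**
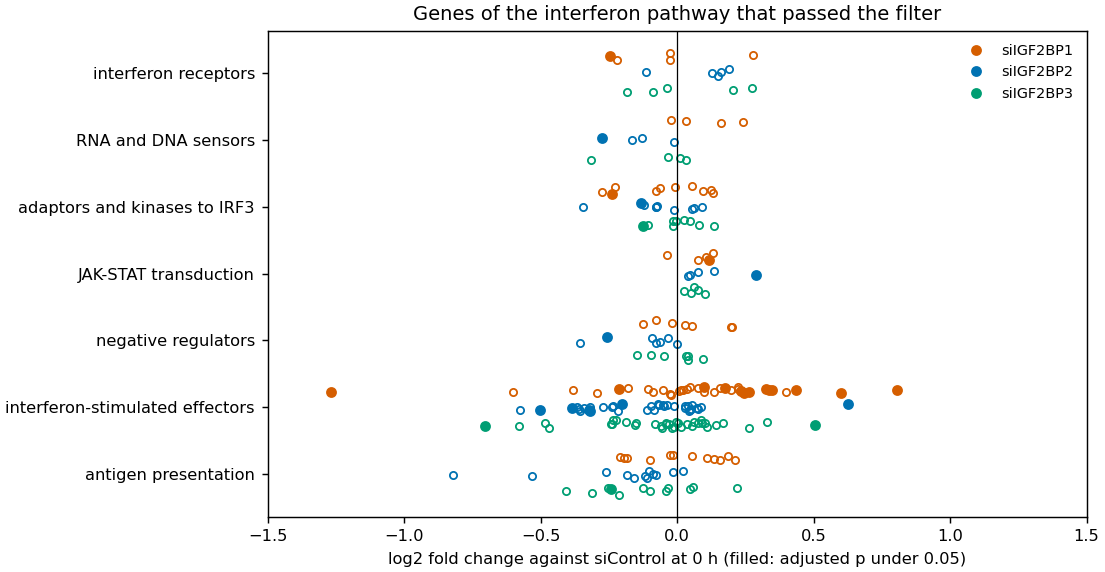
Log2 fold change at 0 h against siControl (horizontal axis) of the 78 tested genes of 7 interferon pathway lists, 1 point per gene and knockdown, filled where the adjusted p was under 0.05. Called genes lie on both sides of 0, with 12 higher and 4 lower in siIGF2BP1, 2 and 8 in siIGF2BP2 and 1 and 3 in siIGF2BP3.

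To follow decay, read counts were scaled to the ERCC spike-in RNAs, a fixed mix of synthetic transcripts added per amount of total RNA, of which libraries held 50889 to 119088 reads. On this scale IRF1, IRF9, IFIT1 and IFIT3 were short-lived, MX1 was intermediate, and OAS3, ISG15 and IFI6 were long-lived under every siRNA. IRF1, IRF9, IFIT1, IFIT3 and MX1 fell with time in all 4 siRNAs (edgeR, slope over 0, 3 and 6 h), so 5 of 8 tested members fell in siControl (80.3% of all genes), 5 of 8 in siIGF2BP1 (69.1%), 5 of 8 in siIGF2BP2 (71.3%) and 5 of 8 in siIGF2BP3 (67.2%). ISG15 and OAS3 were not called in any siRNA, though both were in siControl without 0 h replicate 2 (adjusted p = 0.0331 and 0.0242) and OAS3 also without 6 h replicate 1 (adjusted p = 0.0192). IFI6 rose in siControl and siIGF2BP1. Half-lifetimes were computed from the mean first-order rate over 0 to 3 h and 0 to 6 h on the group means, and 95% intervals are those of a straight-line fit of log level on time. Their medians over the 6 members with a positive rate were 2.18, 2.64, 2.91 and 2.56 h in siControl, siIGF2BP1, siIGF2BP2 and siIGF2BP3, against 5.90, 6.51, 6.21 and 6.61 h over all genes with a positive rate. These medians leave out ISG15 and IFI6, which had no positive rate. With those counted as the longest-lived, the middle of the 8 members lay between 2.29 and 7.59 h, 2.73 and 7.48 h, 3.13 and 6.78 h, and 3.195 and 11.5 h, and the median over all genes was 6.78, 8.33, 7.12 and 8.61 h.

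**Figure D4:**
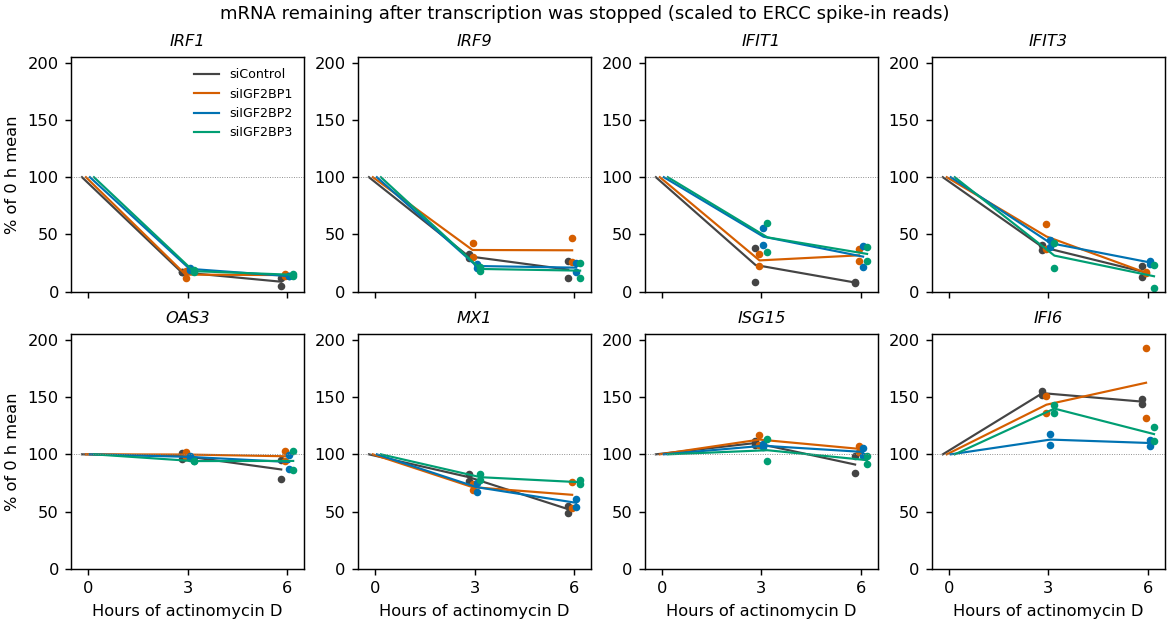
Percent of the 0 h mean remaining after 3 and 6 h of actinomycin D for the 8 tested members, scaled to ERCC reads, with 1 panel per gene, lines through the group means and points for the 2 libraries. IRF1, IRF9, IFIT1 and IFIT3 fall steeply, MX1 falls slowly, OAS3 and ISG15 stay near 100%, and IFI6 lies above 100%.

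By this mean rate the factor IRF1 had the shortest half-lifetime of the members under each siRNA. At 3 h 16.9% ± 0.131 of it was left with siControl, 14.8% ± 4.41 with siIGF2BP1, 19.9% ± 0.848 with siIGF2BP2 and 17.9% ± 1.09 with siIGF2BP3 (mean ± SD, n = 2), and its half-lifetimes were 1.38, 1.45, 1.59 and 1.55 h. Between 4.74% and 6.36% of genes with a half-lifetime had one as short or shorter. Most of the loss came before 3 h: at 6 h 8.61% ± 4.85, 14.4% ± 0.86, 13.5% ± 0.318 and 14.7% ± 1.11 remained. Taken from 6 h alone the half-lifetimes were 1.70, 2.15, 2.07 and 2.17 h, so the rate was not constant and a single half-lifetime depends on the time chosen. From 6 h alone IFIT1 was shorter than IRF1 in siControl (1.64 h), and IFIT3 was shorter in siIGF2BP3 (2.07 h). IRF9 behaved alike in the knockdowns, with 36.4% ± 8.45 at 3 h and 36.1% ± 14.7 at 6 h in siIGF2BP1. In siIGF2BP2 22.35% ± 2.88 and then 20.9% ± 5.38 of IRF9 was left, and in siIGF2BP3 19.8% ± 2.35 and then 18.3% ± 9.36. With siControl IRF9 was at 30.8% ± 2.38 at 3 h and 19.2% ± 10.2 at 6 h. Its half-lifetimes were 2.08, 2.73, 1.82 and 1.68 h in siControl, siIGF2BP1, siIGF2BP2 and siIGF2BP3, with intervals of 1.73 to 4.38, 2.28 to 12.6, 1.72 to 4.58 and 1.58 to 3.97 h. The IRF9 fall in siIGF2BP1 was not called without 0 h replicate 1 (adjusted p = 0.143 by edgeR).

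IFIT1 and IFIT3 also decayed within a few hours. IFIT3 half-lifetimes were 2.29 h with siControl, 2.54 h with siIGF2BP1, 2.69 h with siIGF2BP2 and 1.92 h with siIGF2BP3, with intervals of 1.77 to 3.66, 1.71 to 3.72, 2.11 to 5.27 and 1.53 to 2.93 h. The intervals overlapped, and at 6 h the siIGF2BP3 libraries held 4 and 25 reads. IFIT1 half-lifetimes were 1.52 h in siControl and 2.22, 3.13 and 3.195 h in siIGF2BP1, siIGF2BP2 and siIGF2BP3. The siControl libraries held 94 and 91 IFIT1 reads at 0 h, 27 and 7 at 3 h and 10 and 9 at 6 h. In siIGF2BP1 the reads were 123 and 60, then 26 and 18, then 30 and 23. In siIGF2BP2 they were 52 and 48, then 37 and 30, then 20 and 13, and in siIGF2BP3 69 and 42, then 54 and 16, then 21 and 13. At 6 h 7.90% ± 0.325 of IFIT1 was left in siControl and 31.7% ± 7.43, 30.6% ± 12.6 and 32.9% ± 8.57 in the knockdowns. All 6 knockdown libraries were above both siControl libraries at that time. IFIT2 had at most 5 reads in any library after 0 h and was given no half-lifetime.

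The effectors MX1, OAS3, ISG15 and IFI6 lasted longer. MX1 half-lifetimes were 7.59, 7.48, 6.78 and 11.5 h in siControl, siIGF2BP1, siIGF2BP2 and siIGF2BP3, with intervals of 4.70 to 10.0, 6.23 to 19.6, 5.31 to 13.0 and 8.09 to 83.3 h, and between 53.3% and 68.8% of genes had one as short or shorter. The MX1 fall in siIGF2BP3 was not called without 0 h replicate 1 or 6 h replicate 2 (adjusted p = 0.228 and 0.0708 by edgeR). OAS3 was at 86.8% ± 12.02, 98.3% ± 6.41, 93.3% ± 8.91 and 94.2% ± 11.7 of its 0 h mean after 6 h. The lower bounds of its half-lifetime were 14.9, 26.8, 20.04 and 21.1 h, and a 6 h chase does not resolve longer values. ISG15 was at 91.1% ± 10.0, 104.8% ± 3.39, 102.1% ± 5.37 and 94.9% ± 4.84 after 6 h, with lower bounds of 14.3, 27.1, 23.4 and 16.5 h. IFI6 was the only member above its 0 h mean in each library after 3 h and 6 h. It reached 153.5% ± 2.24 at 3 h with siControl, 143.4% ± 10.7 with siIGF2BP1, 112.9% ± 6.61 with siIGF2BP2 and 140.0% ± 5.02 with siIGF2BP3. The rise over 6 h was 0.54 on the log2 scale in siControl (adjusted p = 0.0475 by edgeR) and 0.69 in siIGF2BP1 (adjusted p = 0.0144), and the siControl call was lost without any of 3 libraries, 0 h replicates 1 and 2 and 6 h replicate 1 (adjusted p = 0.224, 0.163 and 0.0605). In siIGF2BP1 it was lost without 0 h replicate 2 or 6 h replicate 1 (adjusted p = 0.0952 and 0.15).

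The calls of MX1 and of the long-lived members depended on the scale. Gene reads per ERCC read fell to 68.3% ± 3.40 of the 0 h mean by 6 h in siControl and to 77.3% ± 0.597, 75.9% ± 7.54 and 78.3% ± 3.41 in siIGF2BP1, siIGF2BP2 and siIGF2BP3. On a TMM scale, which holds the typical gene level, OAS3 rose by 0.66, 0.65, 0.57 and 0.56 over 6 h on the log2 scale. The 4 short-lived members kept a negative slope in each siRNA under TMM, though IFIT1 in siIGF2BP2 and siIGF2BP3 and IRF9 in siIGF2BP1 were no longer called (adjusted p = 0.0717, 0.0849 and 0.105 by edgeR). MX1 was not called under TMM in any siRNA, with log2 changes of -0.07 with siControl, 0.04 with siIGF2BP1, -0.11 with siIGF2BP2 and 0.23 with siIGF2BP3.

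No member was called with a different slope in a knockdown than in siControl. This was 0 of 8 for siIGF2BP1 (0.0152% of all genes called), 0 of 8 for siIGF2BP2 (0% of all genes called) and 0 of 8 for siIGF2BP3 (0.0228% of all genes called), so few genes were called at all. At an unadjusted p under 0.05 edgeR had 1, 1 and 2 of 8 members, against 10.9%, 6.82% and 16.1% of all genes. DESeq2 called 0 in each, but gave an adjusted p for only 1, 8 and 1 of the 8 members. The largest difference was that of IFIT1, which fell by 3.72 over 6 h on the log2 scale in siControl and by 1.76, 1.75 and 1.63 in the knockdowns. The differences were 1.96 (0.46 to 3.46), 1.97 (0.38 to 3.56) and 2.09 (0.51 to 3.67), with adjusted p = 0.423, 0.643 and 0.277 by edgeR. These 3 values rest on the same 6 siControl libraries, whose IFIT1 counts at 3 h differed between replicates (27 and 7 reads). MX1 in siIGF2BP3 differed by 0.53 (0.06 to 1.01; adjusted p = 0.29 by edgeR). For ISG15 the differences were 0.20 (-0.21 to 0.61), 0.16 (-0.24 to 0.57) and 0.06 (-0.35 to 0.47), and for IRF1 0.70 (-0.80 to 2.21), 0.63 (-0.90 to 2.16) and 0.69 (-0.88 to 2.27). The median over all genes was itself 0.19, 0.17 and 0.22 above 0. The siControl libraries at 0 h had 761.6 and 666.4 gene reads per ERCC read, a wider gap than in the other siRNAs, and its part in these differences was not tested.

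Decay in the wider pathway varied by list. Of the 78 tested pathway genes, 58 fell with siControl, 48 with siIGF2BP1, 51 with siIGF2BP2 and 48 with siIGF2BP3 (edgeR, adjusted p under 0.05). Over all genes 80.3%, 69.1%, 71.3% and 67.2% fell, so the share was lower in the knockdowns for all genes as well. Receptor genes had a median half-lifetime of 3.07 h in siControl and 3.02, 3.17 and 3.10 h in siIGF2BP1, siIGF2BP2 and siIGF2BP3 (5 genes). The 10 adaptors and kinases had medians of 4.79, 4.43, 4.97 and 5.93 h. Among effectors the medians were 7.47, 8.81, 7.35 and 9.92 h over the 31, 28, 31 and 27 genes with a positive rate. Of 12 tested antigen presentation genes only 2 were called falling in siControl and 6 had a positive rate, so no median is given for them. The transcription factor members IRF1 and IRF9 and the effectors IFIT1 and IFIT3 were thus below the effector median, and OAS3 above it, under each siRNA.

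Across the 8 libraries at 0 h, the genes whose log2 CPM most resembled the mean standardised level of the 8 tested members were SPATA5L1 (Pearson r = 0.945), RMDN1 (0.943), TAOK1 (0.939), ACACB (0.931) and SLC7A6OS (0.929), out of 9742 genes with a mean of at least 5 CPM. None of the 5 is in the pathway lists. With 8 libraries that come as 4 pairs of replicates, these values are a description.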

How the data were processed

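Total RNA from transfected HepG2 cells received ERCC RNA, and polyadenylated RNA was sequenced in 24 libraries. Per the labels and the study's methods, the authors trimmed reads with Trimmomatic 0.39, aligned them to hg38 with HISAT2 2.1.0 and counted reads per gene with HTSeq under GENCODE v29. The deposited files hold raw read counts, 1 file per library, and summary rows of unassigned reads (13.6% to 17.1% of reads) were left out. The 45 PAR_Y rows were dropped. Gene lengths, positions and exon overlaps came from GENCODE v44.

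Genes reaching 1 CPM in 2 or more libraries were tested with edgeR 4.0.16 (quasi-likelihood, two-sided, Benjamini-Hochberg, threshold 0.05). Levels at 0 h used TMM and 12 group means, while decay used ERCC totals and a line per siRNA (8 terms). DESeq2 1.42.0 was an alternative. The fits were tested on simulated data with the same spread between libraries for every gene, and the outcome is not given here. That setting does not measure the power for members with few reads. The members and lists were chosen with earlier results of these data known. In each comparison with siControl, up to 6 called pathway genes of at least 1 CPM with the largest changes were named. Other pathway genes named for their level are the lowest and highest of their list, chosen after their values were seen.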

Additional observations from a re-analysis of the deposited data

Results flagged for a closer look

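TDRD7, an effector on the pathway list, had a called difference between siRNAs in its change over 6 h. It fell by 2.43 on the log2 scale in siControl (half-lifetime 2.47 h), by 1.04 in siIGF2BP1 (5.52 h), by 1.24 in siIGF2BP2 (4.36 h) and by 1.08 in siIGF2BP3 (5.40 h). The edgeR test of the difference in slope gave 1.39 for siIGF2BP1 (95% interval 0.97 to 1.81, adjusted p = 0.0105) and 1.35 for siIGF2BP3 (0.92 to 1.77, adjusted p = 0.0176), while siIGF2BP2 had 1.19 (0.77 to 1.61, adjusted p = 0.0937). The siIGF2BP2 difference was called under some alternatives chosen after its value was seen: with 0 h and 6 h libraries only (adjusted p = 2.19e-06), by DESeq2 with ERCC size factors (0.00139), with library size (0.035) and without siControl 0 h replicate 2 (0.0484). After 6 h the siControl libraries held 3.23 and 4.45 CPM and the 6 knockdown libraries 10.9 to 16.0 CPM. The siIGF2BP1 call was lost without siControl 0 h replicate 1 (adjusted p = 0.156), siControl 6 h replicate 1 (0.0708), siIGF2BP1 0 h replicates 1 and 2 (0.0635 and 0.0768) or siIGF2BP1 6 h replicate 1 (0.108). The siIGF2BP3 call was lost without the same 2 siControl libraries (0.185 and 0.0755) or siIGF2BP3 0 h and 6 h replicate 1 (0.184 and 0.072). The 3 comparisons share the siControl libraries, and the gene was listed with this result known. Its cause was not tested.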

How the results depend on the processing

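Of the summary results (counts of called genes and median half-lifetimes), those under the lower filter, no filter, slope fits on the 0 h and 6 h libraries only and DESeq2 with ERCC size factors stayed within 1.5 times for counts and 1 SD between replicates for medians. Single calls were lost within that range: MX1 (adjusted p = 0.0556) in siIGF2BP3 and IFI6 (0.0668) in siControl over time by DESeq2, and HLA-E (0.0522) in siIGF2BP3 at 0 h under the lower filter. At 0 h the ERCC scale gave 0 members for siIGF2BP1 against siIGF2BP2 and 0 in the joint test, where library size also gave 0 and DESeq2 gave 2. The ERCC scale gave 7, 3 and 1 pathway genes for siIGF2BP1, siIGF2BP2 and siIGF2BP3 against siControl, and the share of all genes called on it at 0 h was not recorded. With only the 4 libraries compared, 4 members were called for siIGF2BP1 against siIGF2BP2 (OAS3, IFIT1, IRF1 and MX1), 1 for siIGF2BP1 against siIGF2BP3 (IRF1) and 1 for siIGF2BP2 against siControl (OAS3). No share of all genes was recorded for those fits. On the TMM scale 3 members fell in each of siIGF2BP1, siIGF2BP2 and siIGF2BP3.

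The median half-lifetime in siControl was 1.98 h from 3 h alone, 2.52 h from 6 h alone, 2.48 h from the fitted slope, 2.54 h with library size and 2.49 h with TMM. In siIGF2BP1 it was 3.85 h from 6 h alone, 3.64 h from the fitted slope, 3.04 h with library size and 3.63 h with TMM, and in siIGF2BP3 3.74 h from 6 h alone and 3.68 h from the fitted slope. The members with a positive rate changed with the setting. From 6 h alone ISG15 entered in siControl (44.5 h) and siIGF2BP3 (79.75 h), as it did from the fitted slope (45.1 and 81.2 h). The set can also differ with library size and TMM, where OAS3 rose. Shifts of these medians are thus not shifts over the same members. Leaving out 1 library gave 1.98 to 2.35 h in siControl, 2.3 to 3.2 h in siIGF2BP1 and 2.57 to 3.42 h in siIGF2BP3. It gave 0 to 1 members for siIGF2BP1 against siIGF2BP2 and 0 to 1 in the joint test, and 9 to 12, 3 to 6 and 1 to 3 pathway genes for siIGF2BP1, siIGF2BP2 and siIGF2BP3 against siControl.

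Directions of the change over 6 h reversed on other scales: ISG15 rose in siControl by 0.42 (library size) and 0.74 (TMM) and in siIGF2BP3 by 0.57 (TMM). In siIGF2BP1 and siIGF2BP2, where its ERCC slope was already above 0, ISG15 was called rising by 0.44 and 0.43 (library size) and by 0.74 and 0.70 (TMM). IFI6, not called in siIGF2BP2 and siIGF2BP3 on the ERCC scale, was called rising there with TMM (0.8 and 0.88). With library size IFI6 was also called in siIGF2BP3 (0.585). OAS3 rose by 0.34, 0.35, 0.30 and 0.27 with library size and by 0.66, 0.65, 0.57 and 0.56 with TMM in siControl, siIGF2BP1, siIGF2BP2 and siIGF2BP3. MX1 had 0.0373 in siIGF2BP1 and 0.23 in siIGF2BP3 with TMM. The cause was not tested beyond the scales' construction.

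The replicate block changed no call of a member, giving 1 member for siIGF2BP1 against siIGF2BP2 and 16, 10 and 5 pathway genes against siControl. Same-numbered libraries did not deviate together (correlations of -0.04 to 0.10 over 66 pairs of groups), and the labels do not tie the numbers, so the samples were not treated as paired. Shared plates across the time points of a siRNA cannot be told from these values. Counts of 4 to 40 reads at 6 h limit the slopes of IFIT1, IFIT3 and IRF9.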
